A study of Mus musculus with 12 samples.

Results

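Connexins are the subunits of gap junctions, and 4 of them, Gja1, Gjb1, Gjb2 and Gjb5, were followed here by symbol through a table of RNA-seq read counts for 30743 genes. They were chosen by name with expression differences from these same libraries in view, and which of the comparisons selected them is not recorded, so all are treated as used. Their own differences between groups are therefore given as descriptions with standard errors and without a test. The libraries came from lung tumour cells of mice on a mixed BL6/129 background, sorted after staining for Ter119, F4/80, CD31 and CD45 to leave out blood and endothelial cells. The control group, KT, had 4 libraries (KT 1 to 4). KT is not spelled out in the labels, and both the other genotypes carry it too. The second group, KT;Lkb1f/f, had 3 libraries from tumours with floxed Lkb1, the kinase gene whose mouse symbol is Stk11, and is called Lkb1-deleted below. The remaining 5 libraries came from KT;H11LSL-Cas9 tumours, which carry a Cre-dependent Cas9 allele and guides against Sik kinase genes: 3 are named sgSik1 and 2 sgSik1-3, and together they are called Sik-targeted. The labels do not list the guides behind sgSik1-3, and no KT library is labelled as carrying Cas9. An alternative sample name mentions a lentiviral Cre for KT 2, KT 3 and KT 4 only. Ages and treatments are not given, and nothing says which libraries share a mouse, so the spread between libraries may be partly technical. The series design sets wild-type, Lkb1-deleted and Sik-targeted tumour cells side by side, to ask what they share downstream of Lkb1.

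Each connexin chain crosses the membrane several times, and rings of chains from neighbouring cells dock to form a channel that passes ions and small metabolites. Mixing of chains within a ring sets what the channel lets through. In the lung, alveolar type II cells are coupled to type I cells by gap junctions, in which Gja1 (connexin 43) is the best known subunit. Gjb1 (connexin 32) is the main liver connexin and is also found in alveolar type II cells. Gjb2 (connexin 26) lines cochlear and secretory epithelia and rises in proliferating skin. Gjb5 (connexin 31.1) is known from stratified epithelium and trophoblast. Lkb1 activates the Sik kinases, which restrain CRTC co-activators of the transcription factor CREB, whose DNA element is known as the CRE.

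Total counts ran from 3847760 to 13955181 per library, and the 4 most abundant transcripts took 18.4% to 74.2% of them, most in sgSik1 1. Levels are given as CPM, the usual read count per library size, with sizes scaled by the trimmed mean of M-values (TMM). On that scale 3 counts, the upper limit that a count of 0 allows, correspond to 0.164 to 0.853 CPM, counting error only. KT 2 and KT 3 stood apart: at least 1 read was seen for 23582 and 23747 genes, where the remaining 10 libraries had 14283 to 16533, and their detected olfactory and vomeronasal genes numbered 1000 and 1066, where the rest had 14 to 58. For the 4 connexins, the differences of both genotypes from KT are given below with and without both. Stk11 was at 31.0 to 44.7 CPM in KT and 9.23 to 16.6 CPM in Lkb1-deleted libraries (adjusted p = 0.160, edgeR quasi-likelihood test). Sik1 was at 104.7 to 514 CPM in Sik-targeted libraries, 148.6 to 214 CPM in Lkb1-deleted and 38.2 to 59.6 CPM in KT. In the same order Sik2 was at 12.7 to 28.1, 17.4 to 31.8 and 4.72 to 10.4 CPM. Sik3 was at 8.74 to 21.0, 38.5 to 56.7 and 26.9 to 46.7 CPM. A gene-wide count does not check a guide's cut, whose transcript can persist. Type II cell markers summed to 10160 to 82190 CPM and 5 epithelial markers to 489.8 to 4032 CPM, so both were present in every library.

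The promoters are shown because Gjb2 and Gjb5 were the 2 members whose means were highest over KT in Sik-targeted cells, and because Gja1 and Gjb2 hold a sequence of the CREB element. Each is the 250 bases before the start of the gene, 5′ to 3′ on the gene's own strand, from RefSeq on GRCm38.p6, the patch of the mm10 build that the files use. The motifs, searched on both strands over these bases and the next 50, were the CRE TGACGTCA, its core TGACG, which is also the first part of the CRE, and the AP-1 site TGANTCA. Capitals mark the matches.
Gja1 (chr10:56377050-56377299, plus strand): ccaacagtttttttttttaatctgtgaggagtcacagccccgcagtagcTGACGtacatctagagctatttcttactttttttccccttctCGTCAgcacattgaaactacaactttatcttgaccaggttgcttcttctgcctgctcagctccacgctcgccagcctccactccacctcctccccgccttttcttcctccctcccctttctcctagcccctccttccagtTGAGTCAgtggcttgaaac
Gjb2 (chr14:57104703-57104952, minus strand): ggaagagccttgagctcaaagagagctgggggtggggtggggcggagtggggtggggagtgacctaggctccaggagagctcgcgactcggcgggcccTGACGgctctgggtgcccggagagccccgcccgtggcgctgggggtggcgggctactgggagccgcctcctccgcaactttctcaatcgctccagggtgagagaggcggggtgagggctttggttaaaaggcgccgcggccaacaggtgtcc
Gjb5 (chr4:127358165-127358414, minus strand): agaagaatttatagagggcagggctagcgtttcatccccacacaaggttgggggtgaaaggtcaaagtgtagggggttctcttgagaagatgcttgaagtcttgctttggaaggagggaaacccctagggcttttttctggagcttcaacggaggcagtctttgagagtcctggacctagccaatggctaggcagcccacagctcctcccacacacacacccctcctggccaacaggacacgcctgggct
Counted back from the start, Gja1 held the core at -201 on its own strand and at -159 on the other strand, and the AP-1 site at -19. Gjb2 held 1 core, at -152. None of the motifs was in the Gjb5 window or in the 4 Gjb1 promoters that RefSeq lists. Of 32851 mouse promoters of the same length, 20.8% held the core, 7.81% the AP-1 site and 1.79% the full CRE. The Gjb2 window was the richest in G and C, at 70.0%, against 47.7% for Gja1, 54.3% for Gjb5 and 43.3% to 60.0% for Gjb1; the median over all promoters was 52.7%.

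Gja1 (chr10:56377300-56390419, plus strand; 3.37 kb of exons, with all 382 codons in 1 exon) was the most abundant of the 4. It stood at 324, 71.0, 77.6 and 107 CPM in KT 1 to 4. The Lkb1-deleted libraries 1 to 3 had 137, 168 and 233 CPM. The sgSik1 libraries 1 to 3 had 120, 164 and 124 CPM, and sgSik1-3 1 and 2 had 151 and 74.8 CPM. KT 1 was thus the highest of all 12 libraries and KT 2 the lowest, and every group overlapped every other. Group means were 145 ± 120 CPM in KT (SD, n = 4), 179 ± 49.1 in Lkb1-deleted (n = 3), 136 ± 24.3 in sgSik1 (n = 3) and 113 ± 53.7 in sgSik1-3 cells (n = 2). The fitted log2 difference was 0.31 (SE 0.48) for Lkb1-deleted minus KT and -0.19 (SE 0.42) for Sik-targeted minus KT. Both turned on which KT libraries were kept: without KT 1 they were 1.06 and 0.56, and without KT 2 and KT 3 they were -0.23 and -0.76. Lkb1-deleted minus Sik-targeted, which does not rest on KT levels, was 0.50 (SE 0.46).

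Gjb1 (chrX:101376376-101385629, plus strand; 1.71 kb, 283 codons) was low throughout, with 1 to 68 reads per library. Its mean was above that of Gjb5 in KT (4.10 against 1.47 CPM) and Lkb1-deleted cells (5.66 against 1.63 CPM) and below it in Sik-targeted cells (2.13 against 10.3 CPM). KT 1 to 4 had 8.18, 1.64, 1.69 and 4.88 CPM. Lkb1-deleted 1 to 3 had 8.26, 5.04 and 3.67 CPM. The sgSik1 libraries had 0.284, 2.70 and 1.20 CPM and the sgSik1-3 libraries 4.49 and 1.99 CPM. The lowest level, in sgSik1 1, was a single read and lies under that library's limit of 0.853 CPM. The 3 genotypes overlapped. The log2 difference was 0.49 (SE 0.70) for Lkb1-deleted minus KT, -0.92 (SE 0.64) for Sik-targeted minus KT and 1.41 (SE 0.68) for Lkb1-deleted minus Sik-targeted. The differences from KT moved with the KT libraries kept: without KT 2 and KT 3 they were -0.17 and -1.62, and without KT 1 they were 1.09 and -0.33. The value for Lkb1-deleted minus KT thus changed sign, while that for Sik-targeted minus KT stayed negative in 19 of 19 alternatives. Within the Sik-targeted set the log2 difference was -1.44 (SE 0.74) for sgSik1 minus KT and -0.31 (SE 0.82) for sgSik1-3 minus KT. Gjb1 is X-linked, and the mice were not all of 1 sex by their RNA: Y-linked genes summed to 49.4 to 70.8 CPM in 4 libraries (Lkb1-deleted 2 and 3 and both sgSik1-3) and to at most 1.71 CPM in the other 8. Gjb1 was at 1.99 to 5.04 CPM in those 4 and at 0.284 to 8.26 CPM in the other 8, and the part of sex in its differences was not tested. Both sgSik1-3 libraries are among those 4, and no KT or sgSik1 library is. In sgSik1-3 minus KT and sgSik1-3 minus sgSik1, sex and guides therefore cannot be told apart, for any gene.

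Gjb2 (chr14:57098602-57104702, minus strand; 2.41 kb, 226 codons) was low in every KT library and higher in every other one. KT 1 to 4 had 8.34, 6.55, 15.1 and 17.8 CPM. Lkb1-deleted 1 to 3 had 39.0, 23.0 and 28.8 CPM. The sgSik1 libraries had 31.8, 37.7 and 34.7 CPM and the sgSik1-3 libraries 48.0 and 30.4 CPM. The highest KT library, at 17.8 CPM, lay below the lowest of the other 8, Lkb1-deleted 2 at 23.0 CPM. This gap rests on the scaling of library sizes. Gjb2 had 188 of 6675142 raw counts in KT 3 and 224 of 8753813 in Lkb1-deleted 2, so by total counts the groups overlapped. No alternative left the sizes unscaled. Means were 11.95 ± 5.37 CPM in KT, 30.3 ± 8.08 in Lkb1-deleted, 34.8 ± 2.94 in sgSik1 and 39.2 ± 12.4 in sgSik1-3 cells. The log2 difference from KT was 1.35 (SE 0.38, 2.54-fold) in Lkb1-deleted and 1.62 (SE 0.35, 3.07-fold) in Sik-targeted cells. Both share the KT libraries, so they are not independent of each other. By library name it was 1.57 (SE 0.39) for sgSik1 and 1.74 (SE 0.43) for sgSik1-3. Lkb1-deleted and Sik-targeted levels overlapped, with a log2 difference of -0.27 (SE 0.36). Without KT 2 and KT 3 the differences from KT were 1.23 and 1.46, and over all alternatives they ran from 1.13 to 1.63 and from 1.39 to 1.95.

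Gjb5 (chr4:127354809-127358164, minus strand; 1.72 kb, 271 codons) was low in KT and Lkb1-deleted cells and higher in most Sik-targeted ones. KT 1 to 4 had 1.42, 2.01, 1.61 and 0.849 CPM, from 4 to 27 reads. Lkb1-deleted 1 to 3 had 3.40, 0.206 and 1.29 CPM, from 28, 2 and 7 reads; the 2 reads lie under that library's limit of 0.309 CPM. The sgSik1 libraries had 26.1, 1.99 and 9.17 CPM and the sgSik1-3 libraries 5.67 and 8.51 CPM. So 4 of the 5 Sik-targeted libraries were above all KT and Lkb1-deleted libraries, while sgSik1 2 sat just under the highest KT library and the groups overlapped. That sgSik1 1 ranked highest rests on the scaling of library sizes. Gjb5 had 92 of 8941240 raw counts in sgSik1 1 and 168 of 13955181 in sgSik1 3, which was the larger part of its total. Means were 1.47 ± 0.483 CPM in KT, 1.63 ± 1.63 in Lkb1-deleted, 12.4 ± 12.4 in sgSik1 and 7.09 ± 2.01 in sgSik1-3 cells. The log2 difference was 2.74 (SE 0.74) for Sik-targeted minus KT and 0.11 (SE 0.82) for Lkb1-deleted minus KT. Without KT 2 and KT 3 they were 3.11 and 0.53. The difference for Lkb1-deleted minus KT turned to -1.13 without Lkb1-deleted 1. Lkb1-deleted minus Sik-targeted was -2.64 (SE 0.83). The sgSik1 value of 3.03 (SE 0.79) fell to 1.90 without sgSik1 1, the lowest value over its alternatives. For sgSik1-3 minus KT it was 2.25 (SE 0.85). sgSik1-3 minus sgSik1 was -0.78 (SE 0.92).

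**Figure D1:**
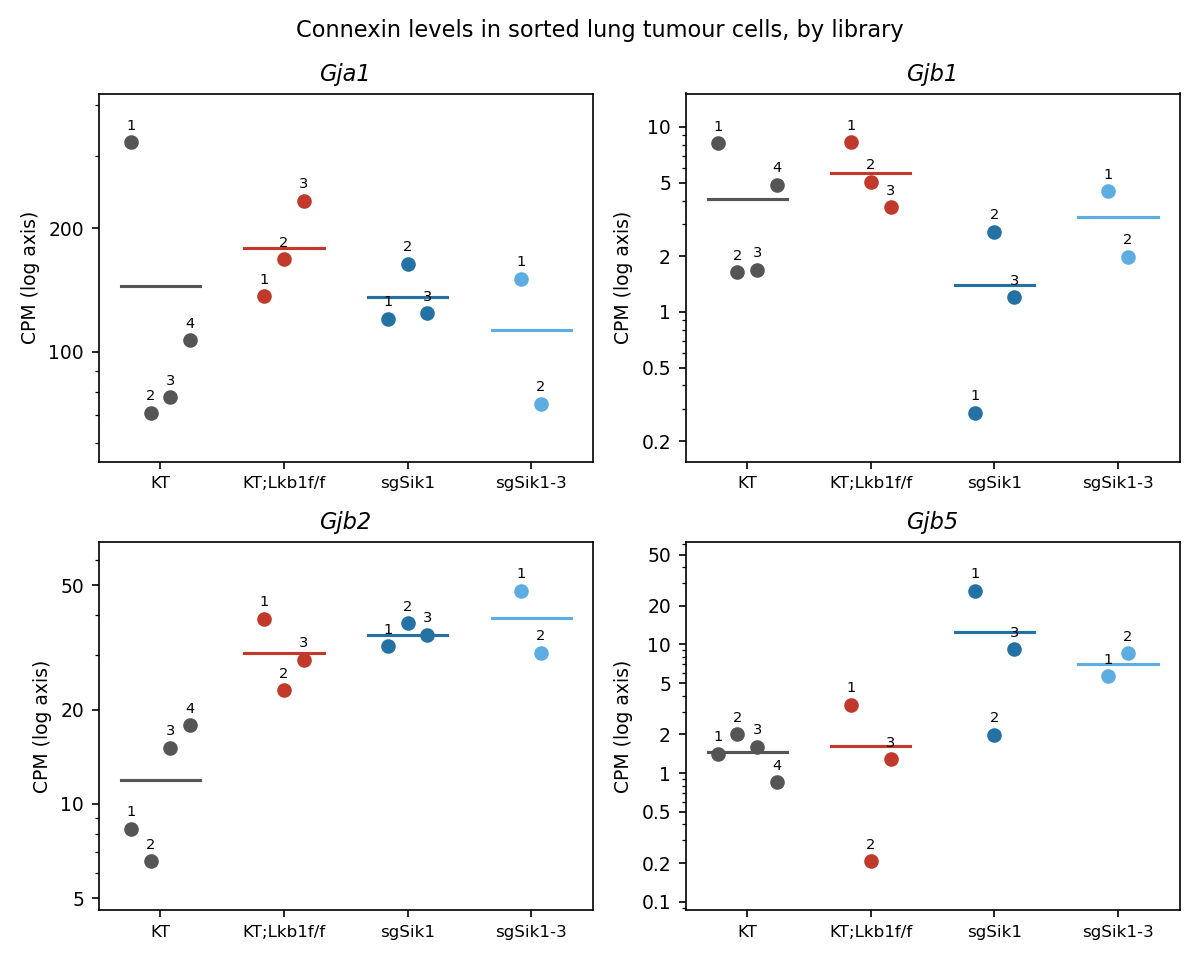
CPM of the 4 connexins on log axes, 1 point per library numbered by replicate, with a line at each group's mean. For Gjb2 all 8 Lkb1-deleted, sgSik1 and sgSik1-3 libraries sit above the 4 KT libraries; for Gjb5 sgSik1 2, at 1.99 CPM, sits among them, and for Gja1 KT 1 stands alone at 324 CPM.

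Read by comparison, all 4 connexins passed the filter on low counts in both fits. In Lkb1-deleted minus KT only Gjb2 had groups that did not overlap. Over all 13575 genes tested, 6.38% lay wholly higher and 8.3% wholly lower, and 1.16% passed the test. In Sik-targeted minus KT Gjb2 was again the only 1 of the 4 without overlap, where 7.32% of all genes lay wholly higher and 8.79% wholly lower, and 12.4% passed. Between Lkb1-deleted and Sik-targeted cells none of the 4 was free of overlap, against 2.45% of genes higher and 2.93% lower, with 0.221% passing. Since these contrasts may have chosen the members, the shares are given for scale alone. The pattern was unlike across the 4. Gjb2 was about equally above KT in both genotypes. Gjb5 was higher in most Sik-targeted libraries but overlapped KT, since sgSik1 2 lay within the KT range. Gjb1 had its lowest mean in sgSik1, and Gja1 moved with single KT libraries.

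**Figure D2:**
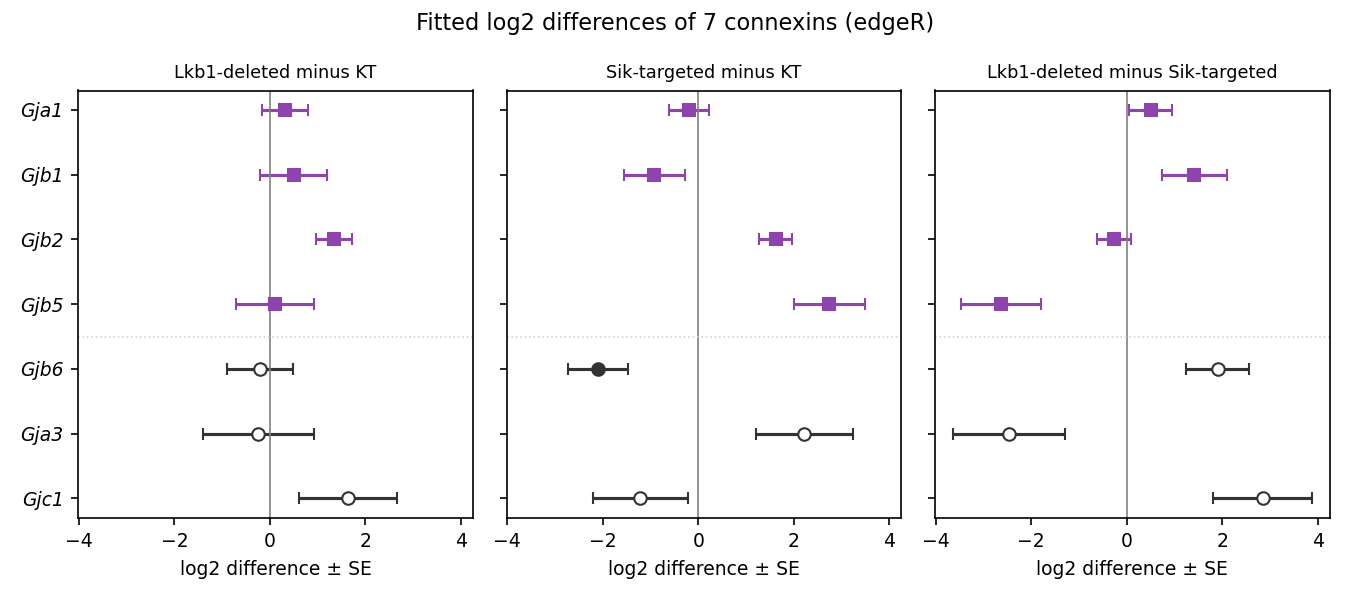
Fitted log2 differences with standard errors for the 4 members (purple squares, not tested) and for Gjb6, Gja3 and Gjc1 (circles, filled where the adjusted p was under 0.05). Gjb2 lies to the right of 0 in both comparisons with KT; Gjb5 and Gja3 do so in Sik-targeted cells, with wide errors, and Gjb6 lies to the left there.

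Per kilobase of exon, which allows levels of different genes to be compared, Gja1 averaged 43.3 CPM per kb over the 12 libraries, Gjb2 11.1, Gjb5 3.02 and Gjb1 2.15. The share of each in the summed level of the 4 differed between groups; shares add up to the whole, so they are tied to one another. Gja1 made up 91.4%, 81.3%, 73.8% and 74.7% in KT 1 to 4 and 63.8%, 79.8% and 82.3% in Lkb1-deleted 1 to 3. It made up 55.5%, 72.6% and 64.3% in the sgSik1 libraries and 63.4% and 54.2% in sgSik1-3. In these shares of the 4 alone, all 5 Sik-targeted libraries lay below all 4 of KT, by little between sgSik1 2 and KT 3. Lkb1-deleted libraries overlapped both groups. Gjb2 took 3.29% to 20.1% in KT, 14.25% to 25.5% in Lkb1-deleted and 20.6% to 30.8% in Sik-targeted libraries. Here KT and Sik-targeted libraries did not overlap, but by little, between KT 3 and sgSik1 1. Gjb5 took 0.783% to 4.51% in KT, 0.192% to 3.11% in Lkb1-deleted and 1.73% to 23.7% in Sik-targeted libraries, which overlap. Gjb1 took at most 7.61% in any library. The shares leave out Gjb6, which averaged 5.36 CPM per kb in KT and 1.23 in Sik-targeted cells. In KT 2 Gjb6 was at 8.26 CPM per kb beside Gja1 at 21.05, and in sgSik1 2 at 1.36 beside 48.7. With Gjb6 counted in, the Gja1 shares of KT and Sik-targeted libraries would overlap. Gja3 was left out too, at 9.44 CPM per kb in sgSik1 1 and 0.725 in KT 3. With both Gjb6 and Gja3 counted in, the Gjb2 shares would overlap as well, by little. The ratio of Gja1 to Gjb2 per kilobase was 27.8, 7.75, 3.68 and 4.28 in KT, 2.50, 5.21 and 5.78 in Lkb1-deleted, and 1.76 to 3.11 in the 5 Sik-targeted libraries. All 5 lay below every KT library, but the ratio is tied to Gjb2, which was itself above every KT library there. How often other genes separate in such ratios or shares was not counted, so these are descriptions. The gap between the groups was narrow, from 3.11 in sgSik1 2 to 3.68 in KT 3. The summed level of the 4 was 25.9 to 105 CPM per kb in KT, 62.4 to 84.0 in Lkb1-deleted and 40.9 to 70.5 in Sik-targeted cells. In bulk RNA such changes of make-up do not tell fewer cells of a type from less RNA per cell.

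**Figure D3:**
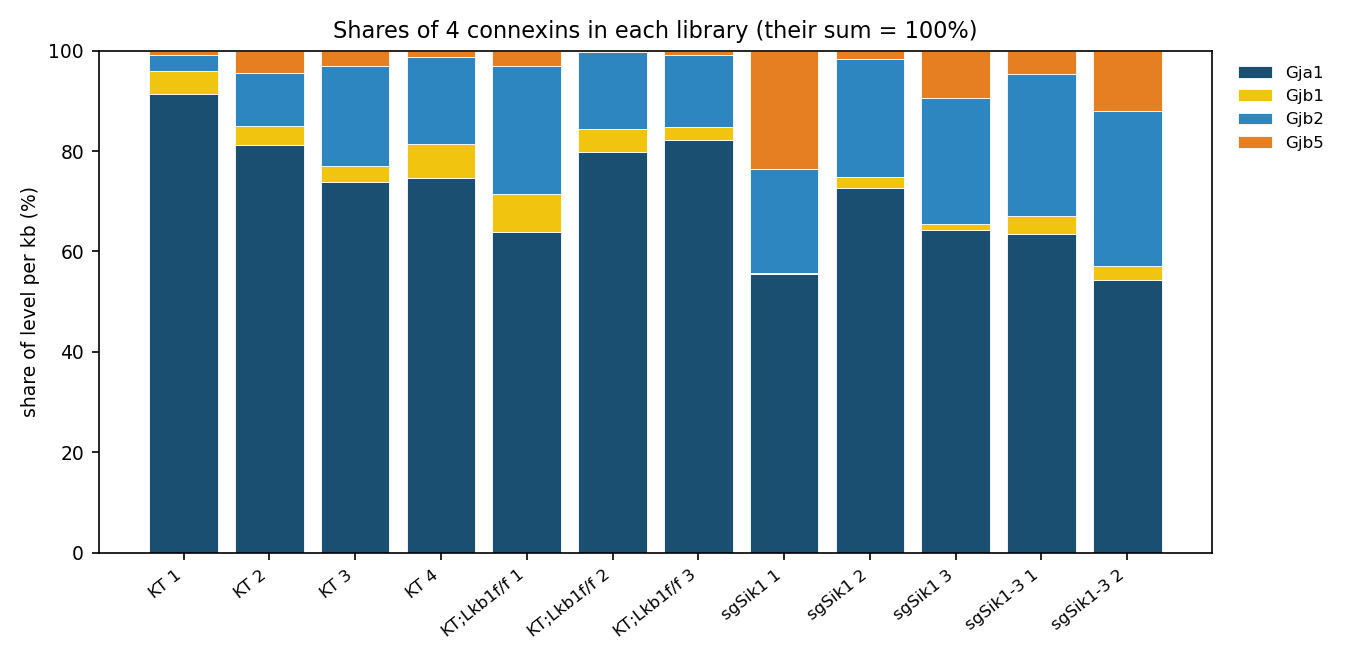
Share of each of the 4 connexins in their summed level per kilobase, in percent, 1 bar per library. Gja1 is the largest part in every library, and Gjb5 has its largest share in sgSik1 1, at 23.7%.

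Around the 4 members, 33 genes of gap junctions were taken by role: 14 further connexins, 3 pannexins, 6 scaffold and adhesion partners and 10 kinases and trafficking factors. Of these, 20 were tested in the fit of 3 genotypes and 22 in that of the 4 library names. In Lkb1-deleted minus KT 0 of 20 passed by edgeR, with 0 at an unadjusted p under 0.05, and 0 by DESeq2; their median log2 difference was 0.21 against -0.04 over all genes. In Sik-targeted minus KT none rose and 2 fell, Gjb6 and Cav1, with a median of 0.07 against -0.03. Over all genes 12.4% passed, a larger share than 2 of 20; 8 of the 20 had an unadjusted p under 0.05, and DESeq2 called 4. For sgSik1 minus KT Cav1 fell and none rose among 22, where 3.84% of 15303 genes passed. For sgSik1-3 minus KT 0 of 22 passed by edgeR, where 2.89% of all genes did, with 3 at an unadjusted p under 0.05 and 2, Cav1 and Cdh1, by DESeq2. Lkb1-deleted minus Sik-targeted gave 0 of 20 by edgeR, with 4 at an unadjusted p under 0.05, and 0 by DESeq2. sgSik1-3 minus sgSik1 gave 0 of 22 by edgeR, with 0 at an unadjusted p under 0.05, 0 by DESeq2, and 0% of all genes called by edgeR. Without KT 2 and KT 3 the count was 0 in each of the 6 comparisons. Over all genes the calls of Sik-targeted minus KT then fell from 1679 to 98, while the log2 differences of Cav1 and Gjb6 were -2.44 and -1.98.

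Gjb6 (connexin 30), known to share channels with Gjb2 in the cochlea, went the other way in Sik-targeted cells. It had 9.44, 17.4, 7.23 and 11.04 CPM in KT, 0.486, 16.9 and 12.1 CPM in Lkb1-deleted, and 1.45 to 3.49 CPM in the 5 Sik-targeted libraries. Its log2 difference for Sik-targeted minus KT was -2.10 (SE 0.63, adjusted p = 0.0414, edgeR), a call held in 9 of 19 alternatives and lost without any 1 of 8 libraries: KT 1, 2, 3 or 4, sgSik1 1 or 3, or sgSik1-3 1 or 2. Lkb1-deleted 1, at 0.486 CPM, was below all Sik-targeted libraries, unlike the other two of its group. Cav1, the caveolar scaffold protein, which interacts with Gja1 and is abundant in type I cells, endothelium and fibroblasts, was at 32.5 ± 14.7 CPM in KT (n = 4) and 5.51 ± 2.30 in Sik-targeted cells (n = 5). Its log2 difference was -2.56 (SE 0.57, adjusted p = 0.0120, edgeR); without KT 2 and KT 3 the adjusted p was 0.119. For sgSik1 alone it was -2.81 (SE 0.69, adjusted p = 0.0345), a call held in 12 of 19 alternatives and lost without KT 2, 3 or 4 or sgSik1 1 or 3. In Sik-targeted cells Pdgfra and Col3a1, 2 of 5 tested fibroblast markers, fell as well, and fibroblast markers summed to 12.9 to 38.7 CPM against 27.5 to 375 in KT; their part in the Cav1 and Gjb6 results was not tested. Rtkn2, 1 of 6 type I cell markers, also fell in Sik-targeted cells, and its part was not tested either.

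The remaining connexins followed here did not pass the test in these comparisons. Gja3 (connexin 46), a lens connexin, had a log2 difference of 2.22 for Sik-targeted minus KT (SE 1.02, adjusted p = 0.167, edgeR), from 26.1 CPM in sgSik1 1 and 0.472 to 4.97 CPM in the other 4 Sik-targeted libraries. On the scaled CPM Gjb5 was also highest in sgSik1 1, at 26.1 CPM. Gjc1 (connexin 45) averaged 1.12 CPM and was highest in Lkb1-deleted 2, at 7.61 CPM. A further 11 connexins averaged under 1 CPM, and 4 of them had reads in KT 2 and KT 3 only. The vascular connexin Gja5 was at most 3.19 CPM.

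Gjb2 lies beside other connexin genes, with Gjb6 18.6 kb and Gja3 40.6 kb away. Of 22 protein-coding genes taken by position around the 4 members, up to 2300.7 kb away, 21 were in the table and 15 were tested in the 3 genotypes. In Sik-targeted minus KT 1 of 15 passed, Gjb6, where 12.4% of all genes did, and 5 had an unadjusted p under 0.05 (edgeR). In Lkb1-deleted minus KT 0 of 15 passed by edgeR, with 2 at an unadjusted p under 0.05, and 0 by DESeq2. The fitted differences of the 2 connexin neighbours of Gjb2 had opposite signs in Sik-targeted minus KT. Gjb2 stood at 1.62, Gjb6 at -2.10 and Gja3 at 2.22, the last not past the threshold. Gja3 was above the KT range of 1.27 to 2.01 CPM in sgSik1 1, sgSik1 3 and sgSik1-3 2. It was not in sgSik1 2 or sgSik1-3 1, and sgSik1 1 was far the highest, at 26.1 CPM. The difference between 2 genes was not itself tested.

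**Figure D4:**
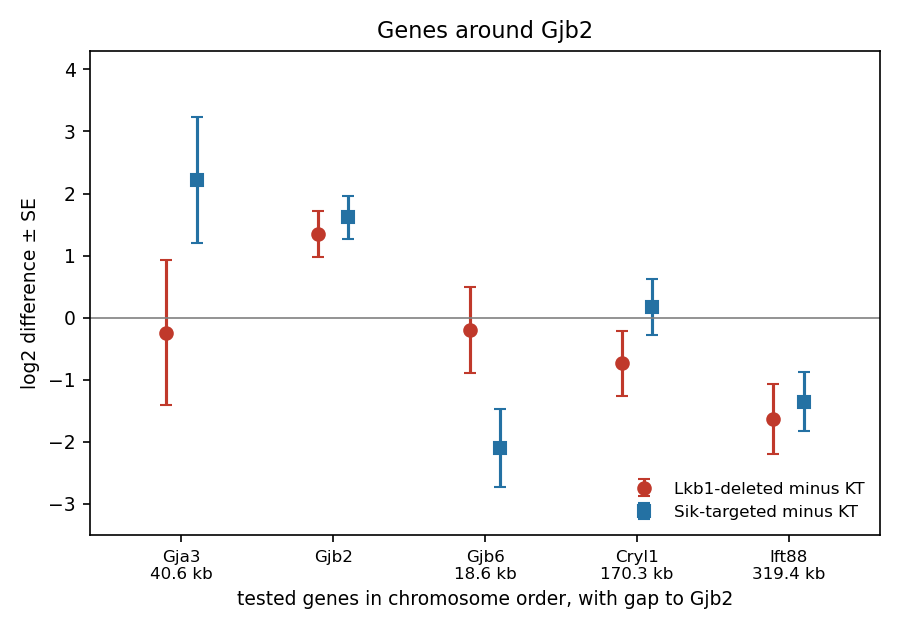
Log2 differences with standard errors of the tested genes around Gjb2, in chromosome order with the gap to Gjb2 in kb. In Sik-targeted minus KT Gjb2 and Gjb6 lie on opposite sides of 0, at 1.62 and -2.10. Gja3, not past the threshold, lies on the same side as Gjb2, at 2.22.

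Markers of other cell types were set beside these levels. For Gja1, which fibroblasts, smooth muscle and endothelium also make, fibroblast markers summed to 27.5, 106, 183 and 375 CPM in KT 1 to 4. KT 1, with the most Gja1, had the least of them, and likewise the least of the pericyte and smooth muscle markers (3.78 CPM) and of the endothelial ones (14.8 CPM) among KT libraries. It had the most of the type II cell markers (82190 CPM, against 22270 to 42580 CPM in the other 3) and of the type I cell markers (826 CPM, against 412 to 773 CPM). KT 4 and sgSik1 1 had type I sums of 773 and 791 CPM beside Gja1 at 107 and 120 CPM, where KT 1 had 324. In Lkb1-deleted 1 to 3 the fibroblast sum was 1.58, 378 and 73.7 CPM and the endothelial sum 1.34, 214 and 83.4 CPM, beside Gja1 at 137, 168 and 233 CPM. Beside Gjb2, the 5 epithelial markers summed to 489.8 to 649.8 CPM in KT, 753 to 1460 CPM in Lkb1-deleted and 894 to 4032 CPM in Sik-targeted libraries. All 8 sums lay above all 4 of KT. Among single genes, 6.38% lay wholly above KT in Lkb1-deleted and 7.32% in Sik-targeted cells, which is not a background for a sum of genes. Epcam (123 to 192 CPM in KT, 118 to 338 in Lkb1-deleted, 159 to 388 in Sik-targeted) and Cldn7 (9.31 to 50.8, 22.2 to 38.5 and 25.5 to 127) overlapped KT. The others, Krt8, Krt18 and Krt19, lay wholly above KT in Lkb1-deleted cells, where none passed the test, and rose in Sik-targeted cells. Of 8 type II cell markers Lamp3, Sftpc and Slc34a2 fell there, and the type II sum was 10160 to 33590 CPM. For Gjb2 and Gjb5, the 7 squamous and basal markers summed to 28.8 to 108 CPM in KT, 146 to 361 in Lkb1-deleted and 149 to 905 in Sik-targeted libraries. Sprr1a and Sfn, at up to 782 and 310 CPM, made up most of each sum. The highest sum, 905 CPM, was in sgSik1 1, as was the highest Gjb5. Both rankings rest on the scaling of library sizes, and by total counts neither was highest there. Of the 5 squamous and basal markers tested, Sfn rose in Lkb1-deleted cells, and Sfn, Krt14 and Sprr1a rose in Sik-targeted cells. Krt5, a defining basal keratin, was at 0 in all 8 Lkb1-deleted and Sik-targeted libraries, and Trp63 was at most 2.57 CPM there. Gastric and gut markers summed to 26.4 to 74.7 CPM in KT, 27.8 to 1492 CPM in Lkb1-deleted (highest in library 1) and 596 to 2426 CPM in Sik-targeted libraries; 5 of 6 tested rose in Sik-targeted cells. Macrophage markers were at 41.8 to 147 CPM in KT against 6.83 to 22.4 CPM in the others, and 4 of 6 fell in Sik-targeted and 3 of 6 in Lkb1-deleted cells. The part of these cell types in the connexin levels was not tested.

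The genes whose pattern over the 12 libraries was most like each member were sought among 10131 genes with a mean of at least 2 CPM, by the root-mean-square difference of log2 levels after centring each gene on its own mean. For Gjb2 they were Etv6 (0.34), Ifitm2 (0.34) and Klf5 (0.35), against 1.04 for the median gene. Klf5, a transcription factor of proliferating epithelium, had at most 95.7 CPM in KT and 159 to 261 CPM in the other 8 libraries. For Gjb5 they were Jag2 (0.48), Kif18b (0.53) and Clcn2 (0.55), against 1.63; Jag2, a Notch ligand, had 45.8 CPM in sgSik1 1 and 0.823 to 10.5 CPM elsewhere. For Gja1 the first 2 were Stub1 (0.37) and Arf6 (0.38), against 0.89, and Stub1 had 8.02 CPM in KT 1 against 1.12 to 3.07 CPM elsewhere. For Gjb1 they were Alg14 (0.57), Asns (0.57) and Atp6v1a (0.61), against 1.29. The 12 libraries share the 3 genotypes and differ in depth, and these distances are descriptions. The 4 members were not close to one another: the nearest pair, Gja1 and Gjb1, was 0.95 apart and the farthest, Gjb1 and Gjb5, 2.41.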

How the data were processed

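Reads were aligned with STAR 2.4.2a and counted with HTSeq on mm10, per the submitters' processing notes, and the authors deposited 1 table of raw counts for 30743 genes in 12 libraries. Neither HTSeq's strand setting nor its annotation is stated in any source used. The members and gene lists were chosen with earlier results of these data known. Counts were tested with edgeR 4.0.16 (R 4.3.3; filterByExpr, TMM, robust quasi-likelihood F-test, 2-sided, Benjamini-Hochberg over all tested genes, threshold 0.05). One fit had 3 genotypes (13575 genes) and one the 4 library names (15303 genes). SE is the log2 difference divided by the root of F. The scripts were tested on simulated data. Alternatives were DESeq2 1.42.0, other scaling, no filter, 2-group fits, a replicate block and left-out libraries. Genes were named by rule: the 4 members, role genes and neighbours past the threshold, connexins with a mean of at least 1 CPM, the most alike genes per member, and markers. A few genes are not reported here and were left out of the lists and their counts. Exon lengths are from GENCODE and gene positions and promoters from RefSeq GRCm38.p6; all 4 members matched a promoter. Libraries of a group differed by more than counting noise (chi-square per degree of freedom at least 15.1).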

Additional observations from a re-analysis of the deposited data

Results flagged for a closer look

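A library stood far from the rest of its group, by Dixon's gap criterion, in 3 of 20 groups looked at over 10 connexins and related genes; chance flags about 1 in 20. Gja1 was at 324 CPM in KT 1 and at 71.0 to 107 CPM in the other 3 KT libraries. Gja3 was at 26.1 CPM in sgSik1 1 and at 0.472 to 4.97 CPM in the other 4 Sik-targeted libraries. Gja5 was at 0.362 CPM in sgSik1-3 2, under the limit of 0.543 CPM that a count of 0 allows there, and at 0 to 0.0546 CPM in the others.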

How the results depend on the processing

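Of the values for the 4 members, those of Gjb2 against KT kept their sign in 19 of 19 alternatives, as did those of Gjb5 for Sik-targeted minus KT and for each Sik library name minus KT. Gjb1 also kept its sign for Sik-targeted minus KT, between -1.62 and -0.328, and for sgSik1 minus KT, between -2.19 and -0.834. Leaving out 1 library moved Gjb5 in Lkb1-deleted minus KT between -1.13 and 0.67, Gja1 in Sik-targeted minus KT between -0.43 and 0.56, and, for sgSik1-3 minus sgSik1, Gja1 between -0.88 and 0.14, Gjb2 between -0.21 and 0.45 and Gjb5 between -1.29 and 0.34. It moved Gja1 between -0.31 and 0.70 in sgSik1 minus KT and between -0.94 and 0.42 in sgSik1-3 minus KT, and Gjb1 between -0.998 and 0.294 in the latter. Counts of the 33 gap-junction role genes past the threshold depended on the setting, and the cause was not tested. Lkb1-deleted minus KT stayed at 0 in 19 of 19 alternatives, as did sgSik1-3 minus sgSik1. Sik-targeted minus KT went from 2 to 6 with no filter, 4 with DESeq2, 0 without KT 2 and KT 3 and 1 with a replicate block, and between 1 and 4 with 1 library left out. Lkb1-deleted minus Sik-targeted went from 0 to 3 with no filter, and between 0 and 2 with 1 library left out. sgSik1 minus KT went from 1 to 3 with no filter, 2 with 2 groups fitted, 0 without KT 2 and KT 3 and 0 with the replicate block, and between 0 and 3 with 1 library left out. sgSik1-3 minus KT went from 0 to 2 with no filter, with DESeq2 or with 2 groups fitted, and between 0 and 1 with 1 library left out. The neighbour count of Lkb1-deleted minus KT went from 0 to 1 with no filter, and between 0 and 1 with 1 library left out. That of Sik-targeted minus KT went from 1 to 4 with no filter, 3 with DESeq2, 2 with 2 groups fitted, and 0 without KT 2 and KT 3 or with the replicate block, and between 0 and 2 with 1 library left out. That of Lkb1-deleted minus Sik-targeted went from 0 to 2 with no filter, and between 0 and 1 with 1 library left out. That of sgSik1 minus KT went from 0 to 3 with no filter and 2 with 2 groups fitted, and between 0 and 2 with 1 library left out. That of sgSik1-3 minus KT went from 0 to 2 with no filter, 1 with DESeq2 and 2 with 2 groups fitted, and between 0 and 2 with 1 library left out. Whether the replicate numbers pair the libraries is not known. Over 15 pairs with the same number, deviations from the group means correlated between -0.31 and 0.22, 5 of them over 0.1. In 10 of 18 matches the best of 3 partners had the same number, where a random pick would give 1 in 3. With a replicate block, the calls of Sik-targeted minus KT over all genes went from 1679 to 1050. For sgSik1-3, leaving out a library leaves 1, assumed to vary like the other groups. Depth limits Gjb1 and Gjb5, which had 1 to 168 reads per library.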
